A study of Mus musculus with 9 samples.

Results

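The genes described here build, cross-link and remodel basement membranes and the collagens around vessels. They are 38 genes listed by name and role: 20 structural components, 8 genes of collagen modification, and 10 proteases and protease inhibitors. A named probe was present for 37 of them (Mmp15 had none in the platform annotation used here), and 31 were tested, among 10948 genes with a tested probe. A probe was tested when its detection p-value was under 0.05 on all arrays of at least 1 labelled group, and for genes with several such probes the most intense was used. The tested members were 15 of the 20 structural genes, all 8 genes of collagen modification, and 8 of the 10 proteases and inhibitors.

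Illumina bead arrays were used on whole retinas of C57BL6/N mice with oxygen-induced retinopathy, a model in which high oxygen stops vessel growth in the young retina and room air afterwards leaves the tissue short of oxygen. Nursing litters spent 5 days in 75% oxygen, beginning at postnatal day 7 (P7). The control group was normal P12 mice, the hyperoxic group was taken at P12 on leaving oxygen, and the hypoxic group was taken at P12.5 after 12 hours in room air. The 9 arrays, 3 in each group, held 1 mouse each, with its 2 retinas pooled, and the design text counts them as biological replicates. Normal P12.5 mice were not among the samples, so each comparison with the P12.5 arrays also spans 12 hours of age and of the day.

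Basement membranes are thin sheets on which vessel walls, glial endfeet and epithelia rest. Laminins form a first network at the cell surface, type IV collagen forms a second that is held by covalent bonds, and nidogens and the heparan sulfate proteoglycans perlecan and agrin connect the networks. Collagen chains are hydroxylated on proline and lysine in the endoplasmic reticulum, folded with the help of the chaperone HSP47 and cross-linked outside the cell by lysyl oxidases, while metalloproteinases and their inhibitors control how the sheet is opened for sprouting vessels. Several of the hydroxylases and lysyl oxidases are known targets of the hypoxia-inducible factors (HIF).

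Values below are log2 levels, which are background-corrected and quantile-normalized intensities on the log2 scale, and a difference is a difference of mean log2 levels with its standard error. The values of an array set are given for replicates 1, 2 and 3 in that order. Of 46613 probes analysed, 19620 were tested. Median raw intensity was 67.4 to 82.3 on 8 arrays and 163.6 on hyperoxic 1, and the share of probes detected was 30.6% on hyperoxic 1 and 42.1% to 44.5% on the rest. Of the 31 tested members, 25 were detected on all 9 arrays. Lama5, Nid2, Loxl2, Plod2 and Adamts9 were not detected on hyperoxic 1, and Bgn was not detected on hyperoxic 1, hypoxic 1 and hypoxic 2. The retinal identity of the samples was checked on rod and cone genes, of which 13 of 15 were tested, and their mean log2 level was 10.97 to 11.47 over the 9 arrays.

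The condition of some P12 arrays is in doubt. At 100% of probes the deposited ratios had a median of 1 across the trio control 1, hyperoxic 2 and hyperoxic 3, and at 12.6% of probes across the 3 labelled controls. The deposited detection p-values beside control 2 and control 3 followed the intensities of hyperoxic 2 and hyperoxic 3, and those beside hyperoxic 1, 2 and 3 followed control 2, control 3 and hyperoxic 1. Whether the labels of these arrays were exchanged was not tested. The member genes were therefore compared in 3 ways: by the labelled groups, as P12.5 against all 6 P12 arrays together, and with the P12 arrays split into these 3, called the reference arrays, and the other P12 arrays (control 2, control 3 and hyperoxic 1). The split follows how the ratios were formed, it is not the study's grouping, and no condition is assigned to either side. With the deposited ratios in place of the normalized intensities none of the 31 members passed in any comparison. The map of member levels by array shows the P12 arrays in that order.

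**Figure D1:**
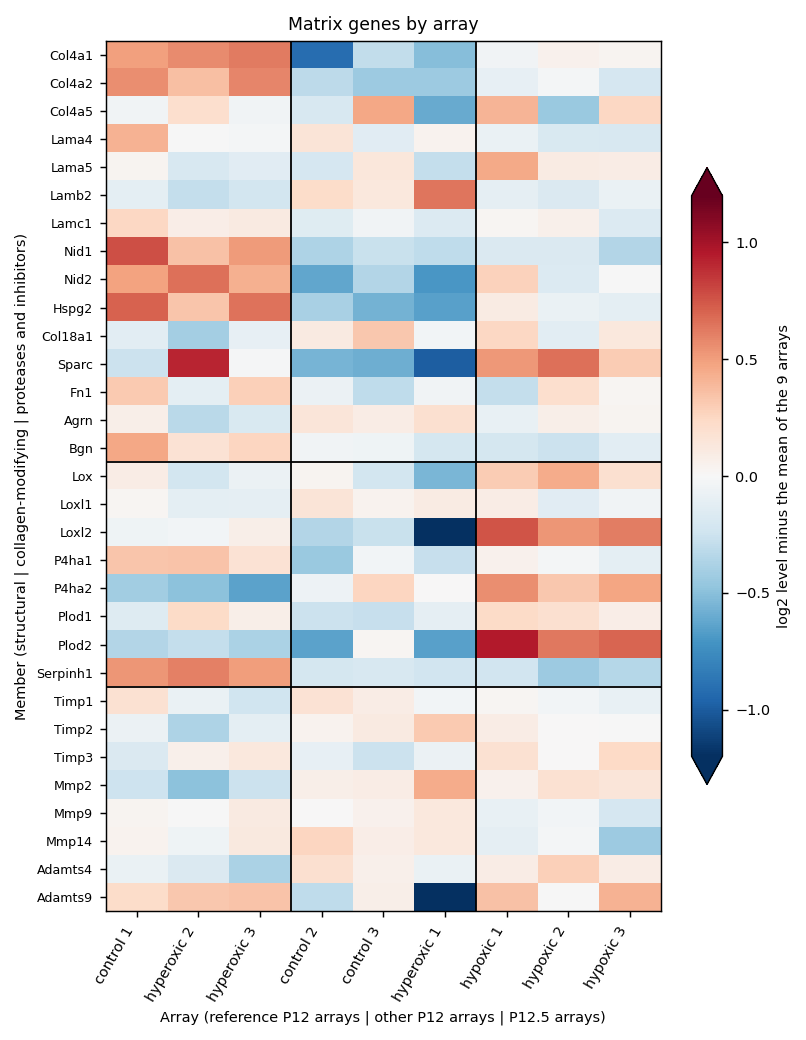
Heat map of the 31 tested members (rows, in the order structural, collagen-modifying, proteases and inhibitors) on the 9 arrays (columns), coloured by log2 level minus the gene's mean over the 9 arrays. Col4a1, Col4a2, Nid1, Nid2, Hspg2 and Serpinh1 are high on the 3 reference arrays at the left, and Plod2 and Loxl2 are high on the 3 P12.5 arrays at the right.

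Among the members, 1 gene changed in the labelled comparisons with P12.5 and a second set changed with the split of the P12 arrays. Plod2, which hydroxylates lysines in collagen telopeptides and so sets the kind of cross-link, was 2.21-fold higher at P12.5 than on all 6 P12 arrays. The type IV collagen chains Col4a1 and Col4a2, both nidogens, perlecan (Hspg2) and the chaperone Serpinh1 were 1.69- to 2.19-fold lower on the other P12 arrays than on the reference arrays. With P4ha1, 7 of 31 members were lower along this split, and 2 were higher, P4ha2 and Mmp2 (background 2.41% and 1.59% of probes). Between the arrays labelled hyperoxic and control at P12, 0 of 31 members passed (limma, Benjamini-Hochberg adjustment, background 0% of probes, lowest adjusted p among members = 0.501), while 2 of 31 members and 1873 probes had an unadjusted p under 0.05. With array weights 10 members passed there, 6 higher and 4 lower, as did 2680 of all 19620 tested probes. In that comparison the values of the labelled groups did not overlap for Plod1 and Timp3, which were higher in the hyperoxic arrays (background 4.33% of probes), and for Timp1, which was lower (background 9.8%). Without hyperoxic 1, Sparc passed as higher in the arrays labelled hyperoxic (0.92, adjusted p = 0.0484), where 568 of all tested probes passed.

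The structural genes are taken first, beginning with type IV collagen. Col4a1, a chain of the collagen network of every basement membrane, stood at 9.80, 8.39 and 9.01 on the control arrays, 8.80, 9.87 and 9.93 on the hyperoxic arrays and 9.26, 9.35 and 9.34 on the hypoxic arrays. The reference arrays (control 1, hyperoxic 2 and hyperoxic 3) were highest, the P12.5 arrays lay between, and the other P12 arrays were lowest, with no overlap between these 3 sets. Col4a2, which joins Col4a1 in the same triple helix, was at 11.06, 10.19 and 10.07 on the control arrays, 10.08, 10.87 and 11.10 on the hyperoxic arrays and 10.41, 10.48 and 10.30 on the hypoxic arrays. Its 3 sets stood in the same order, also without overlap, while the order of arrays within the sets differed. On the other P12 arrays Col4a1 was lower than on the reference arrays by a log2 difference of -1.13 ± 0.15 (limma adjusted p = 0.00334) and Col4a2 by one of -0.90 ± 0.11 (adjusted p = 0.00238). The P12.5 arrays were below the reference arrays for Col4a1 (-0.55 ± 0.15, adjusted p = 0.0450) and Col4a2 (-0.61 ± 0.11, adjusted p = 0.00645). Against the other P12 arrays Col4a1 was higher at P12.5 (0.59 ± 0.15, adjusted p = 0.0451), while Col4a2 did not pass (0.29 ± 0.11, adjusted p = 0.127). With median centring Col4a2 passed there too (0.72, adjusted p = 0.0372). That setting moved the median of all probes in this comparison to 0.37, with 2381 probes called higher and 10 lower. Against all 6 P12 arrays together the differences were 0.02 ± 0.32 for Col4a1 and -0.16 ± 0.25 for Col4a2, neither of which passed. Both P12.5 calls of Col4a1 were lost when single arrays were left out: the call against the reference arrays without any 1 reference or P12.5 array (adjusted p = 0.0944 to 0.146), and the call against the other P12 arrays without any 1 of control 1, control 2, hyperoxic 2, hyperoxic 3 or the P12.5 arrays (adjusted p = 0.0532 to 0.135).

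Col4a1 and Col4a2 lie head to head on chromosome 8, and their promoter windows are printed because these genes moved together. The windows run from 250 bases before to 50 bases after the start of transcription (RefSeq, GRCm38.p6), at chr8:11312777-11313076 on the minus strand for Col4a1 and chr8:11312555-11312854 on the plus strand for Col4a2, and they share 78 bases. Capitals mark matches to ACGTG or GCGTG on either strand, the core of the element that HIF binds.
Col4a1: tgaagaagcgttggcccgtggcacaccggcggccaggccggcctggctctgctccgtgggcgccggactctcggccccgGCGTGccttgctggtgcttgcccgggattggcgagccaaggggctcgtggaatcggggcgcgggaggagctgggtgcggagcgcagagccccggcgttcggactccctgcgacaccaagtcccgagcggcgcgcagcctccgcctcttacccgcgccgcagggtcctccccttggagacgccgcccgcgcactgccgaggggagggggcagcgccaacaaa
Col4a2: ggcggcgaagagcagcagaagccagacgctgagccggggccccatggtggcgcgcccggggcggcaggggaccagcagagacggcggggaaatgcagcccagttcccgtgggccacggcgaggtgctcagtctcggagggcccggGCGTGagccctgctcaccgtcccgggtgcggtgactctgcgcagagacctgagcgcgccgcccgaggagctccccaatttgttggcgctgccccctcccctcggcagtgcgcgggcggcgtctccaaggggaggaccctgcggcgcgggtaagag
Each window held 1 match, at -171 in Col4a1 and -105 in Col4a2, counted from the start of transcription. Of all 32851 promoter windows of the same length, 43.8% hold at least 1 match, so such a match is a description of these letters and not a site.

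The linker proteins between the laminin and collagen networks followed. Nid1, nidogen-1, was at 7.06, 5.91 and 6.01 on the control arrays, 5.98, 6.63 and 6.80 on the hyperoxic arrays and 6.11, 6.11 and 5.94 on the hypoxic arrays. The reference arrays were high and both the other P12 arrays and the P12.5 arrays were low. Nid2, its close relative, was at 6.54, 5.44 and 5.71 on the control arrays, 5.36, 6.72 and 6.48 on the hyperoxic arrays and 6.34, 5.89 and 6.05 on the hypoxic arrays, with the P12.5 arrays between the P12 sets. The split differences were -0.86 ± 0.12 for Nid1 (limma adjusted p = 0.00579) and -1.08 ± 0.14 for Nid2 (adjusted p = 0.00379). At P12.5 Nid1 was lower than on the reference arrays (-0.78 ± 0.12, adjusted p = 0.00442) and differed from the other P12 arrays by 0.08 ± 0.12, which did not pass. Nid2 at P12.5 was higher than on the other P12 arrays (0.59 ± 0.14, adjusted p = 0.0417), a call lost without any 1 of control 1, control 2, hyperoxic 3 or the P12.5 arrays (adjusted p = 0.0504 to 0.147), and differed from the reference arrays by -0.49 ± 0.14, which did not pass with all arrays and passed without hyperoxic 1 (adjusted p = 0.0237).

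Perlecan and agrin are the heparan sulfate proteoglycans of the sheet. Hspg2, which encodes perlecan, was at 7.88, 6.78 and 6.60 on the control arrays, 6.52, 7.50 and 7.82 on the hyperoxic arrays and 7.27, 7.09 and 7.05 on the hypoxic arrays. All 3 sets were apart, with the reference arrays highest and the other P12 arrays lowest. The split difference was -1.10 ± 0.13 (limma adjusted p = 0.00250), and a second tested probe gave -1.31 ± 0.18 (adjusted p = 0.00457). At P12.5 Hspg2 was lower than on the reference arrays by -0.60 ± 0.13 (adjusted p = 0.0191), a call lost without control 1, hyperoxic 3, hypoxic 2 or hypoxic 3 (adjusted p = 0.0752 to 0.0824), and the second probe did not pass there. Against the other P12 arrays Hspg2 differed at P12.5 by 0.50 ± 0.13 (adjusted p = 0.0503), which passed after median centring (0.95, against 0.37 over all probes, adjusted p = 0.0160), without hyperoxic 2 (0.50, adjusted p = 0.0322) and with the mean of its probes (0.59, adjusted p = 0.0296). Agrn, which encodes agrin, was at 11.73, 11.80 and 11.75 on the control arrays, 11.85, 11.34 and 11.47 on the hyperoxic arrays and 11.57, 11.73 and 11.70 on the hypoxic arrays. Its reference arrays were below the other P12 arrays, and it passed in none of the comparisons as reported. Bgn, the small proteoglycan biglycan, was at 5.65, 5.14 and 5.14 on the control arrays, 4.97, 5.36 and 5.45 on the hyperoxic arrays and 4.98, 4.93 and 5.06 on the hypoxic arrays, close to background, and it met the detection filter through the control arrays alone, so its differences rest in part on undetected values. It was lower at P12.5 than on the reference arrays (-0.50 ± 0.11, adjusted p = 0.0214), a call lost without control 1, hyperoxic 3 or any 1 of the P12.5 arrays (adjusted p = 0.0586 to 0.0893), and nothing is rested on it.

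Among the laminin chains none passed along the split. Lamc1, the gamma chain of most laminins, was at 7.71, 7.31 and 7.42 on the control arrays, 7.30, 7.54 and 7.57 on the hyperoxic arrays and 7.48, 7.52 and 7.30 on the hypoxic arrays, with the reference arrays above both the other P12 arrays and the P12.5 arrays, and the difference along the split was -0.26 ± 0.11 (limma adjusted p = 0.176). Lama4, an alpha chain of endothelial laminin, was at 7.67, 7.41 and 7.13 on the control arrays, 7.30, 7.26 and 7.23 on the hyperoxic arrays and 7.17, 7.07 and 7.06 on the hypoxic arrays, so that the P12.5 arrays were below the labelled hyperoxic arrays and hypoxic 1 was just above control 3. Lama5, an alpha chain of mature vessel walls and epithelia, was at 5.43, 5.19 and 5.53 on the control arrays, 5.11, 5.20 and 5.26 on the hyperoxic arrays and 5.85, 5.49 and 5.49 on the hypoxic arrays, with hypoxic 1 highest. Lama5 differed from the 6 P12 arrays by 0.32 ± 0.13, which did not pass (adjusted p = 0.178). Lamb2, a beta chain of retinal and neuromuscular laminins, was at 6.38, 6.73 and 6.63 on the control arrays, 7.14, 6.22 and 6.28 on the hyperoxic arrays and 6.39, 6.33 and 6.42 on the hypoxic arrays. Its other P12 arrays were higher than the reference arrays by 0.54 ± 0.14 (adjusted p = 0.0565), and that difference passed without control 3 (0.64, adjusted p = 0.0486). Lama1, Lama2 and Lamb1 had no tested probe, and of their probes 1 for Lama2 was detected on hyperoxic 2 and hyperoxic 3 and the rest on no array.

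Sparc encodes a collagen-binding protein that is secreted with type IV collagen. It was at 7.42, 7.12 and 7.09 on the control arrays, 6.69, 8.59 and 7.66 on the hyperoxic arrays and 8.20, 8.33 and 7.98 on the hypoxic arrays. Hyperoxic 2 was the highest array, the P12.5 arrays were above the other 5 P12 arrays, and hyperoxic 1 was lowest. Sparc was higher at P12.5 than on the other P12 arrays by 1.20 ± 0.26 (limma adjusted p = 0.0318), but this call was lost without control 2, control 3, hyperoxic 3 or any 1 of the P12.5 arrays (adjusted p = 0.0514 to 0.111). Against all 6 P12 arrays it differed by 0.74 ± 0.33 (adjusted p = 0.228), which passed without hyperoxic 2 (0.97, adjusted p = 0.0240). Along the split Sparc differed by -0.92 ± 0.26 (adjusted p = 0.0790), which passed without control 1 (-1.16, adjusted p = 0.0415). Col18a1, whose product carries endostatin at its end, was at 9.0, 9.24 and 9.45 on the control arrays, 9.10, 8.71 and 9.02 on the hyperoxic arrays and 9.37, 9.0 and 9.25 on the hypoxic arrays, with the other P12 arrays above the reference arrays and no call. Col4a5, a chain found in some basement membranes only, ranged from 6.30 to 7.38 over the 9 arrays, and its 2 tested probes had differences of opposite sign against the 6 P12 arrays (0.10 ± 0.23 and -0.39 ± 0.14). Its dimmer probe was lower at P12.5 than on the other P12 arrays by -0.53 ± 0.13 (adjusted p = 0.0447), while the one used differed by 0.18 ± 0.28. Fn1, fibronectin, ranged from 6.34 to 6.96, and the sets overlapped in every comparison. Col4a3 was detected on control 1 and control 3 only, Col15a1 on no array, and neither was tested.

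Counted together, 5 of 15 structural genes were lower on the other P12 arrays than on the reference arrays and 0 were higher, where 2.41% of all probes were called lower and 1.59% higher. The arrays of both sides did not overlap for 8 structural genes that were lower and 3 that were higher (background 13% of probes in each direction). The structural median was -0.30, against -0.03 over all probes. With each array centred on its median the structural median was -0.60, against -0.26 over all probes, and with the deposited ratios it was -0.43, against -0.22. The 5 calls, and that of Serpinh1 below, were kept under 12 of 13 alternatives each and lost under the deposited ratios (adjusted p = 0.0562 to 0.191). Against the reference arrays 5 of 15 structural genes, Bgn among them, were lower at P12.5 and 0 higher (background 4.64% lower and 4.4% higher). With median centring none of these 5 passed (adjusted p = 0.0699 to 0.519). Against the other P12 arrays 3 of 15 were higher at P12.5 and 0 lower (background 4.25% higher and 2.02% lower). Over all 31 members, the P12.5 arrays did not overlap the reference arrays for 8 that were higher and 11 that were lower (background 17.4% and 17.3%), and did not overlap the other P12 arrays for 11 that were higher and 4 that were lower (background 17.2% and 15.5%). These comparisons share the P12.5 arrays, so their counts are given side by side and not set against each other.

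**Figure D2:**
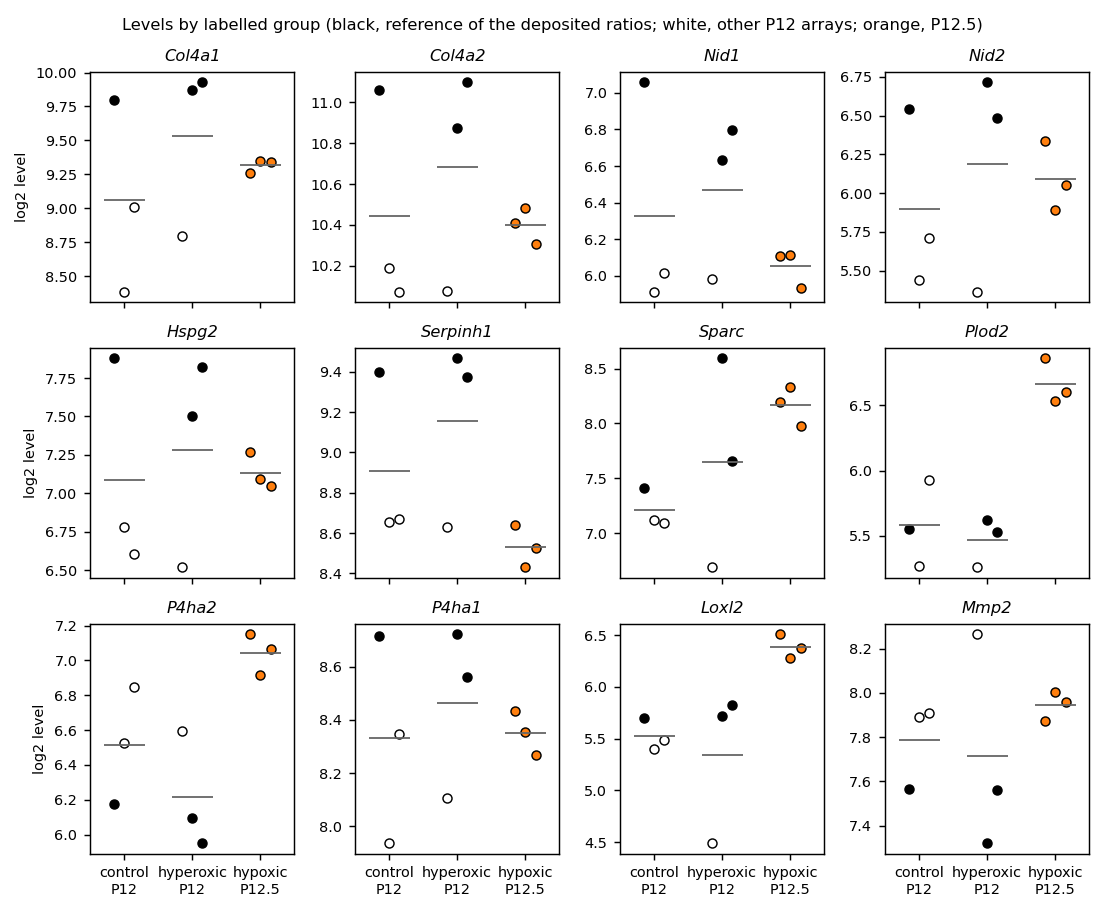
Log2 levels (vertical axis, own range in each panel) of 12 members on the 9 arrays by labelled group, with 3 arrays per group and a bar at the group mean. Black points are the reference arrays, white points the other P12 arrays and orange points the P12.5 arrays. For Col4a1, Col4a2, Nid1, Nid2, Hspg2 and Serpinh1 each labelled P12 group holds both high black and low white points, and for Plod2, P4ha2 and Loxl2 all orange points lie above the P12 points.

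Vascular markers moved with the same split, where 2.41% of all probes were called lower and 1.59% higher. Of 28 endothelial markers 19 were tested, and 15 of these were lower on the other P12 arrays than on the reference arrays and 0 higher. Their summed linear level was 7687 to 8236 on the reference arrays, 5525 to 5832 on the other P12 arrays and 6924 to 7467 at P12.5. Their mean log2 level was 7.80 to 7.89, 6.85 to 6.97 and 7.10 to 7.19 on these 3 sets. At P12.5, 15 of the 19 were lower than on the reference arrays and 2 higher (background 4.64% and 4.4%). Against the other P12 arrays 4 were higher at P12.5 and 1 lower (background 4.25% and 2.02%). Of 15 pericyte and smooth muscle markers 9 were tested and 6 were lower along the split, with sums of 4901 to 5021, 2825 to 2910 and 2190 to 2560 on the 3 sets. The mean log2 levels of these 9 were 7.58 to 7.61, 6.58 to 6.91 and 6.82 to 6.89. The part of these cells in the matrix gene differences was not tested, and in whole retina fewer cells of a type and less RNA per cell cannot be told apart. The mean log2 level of the 15 structural genes was 7.70 to 7.81 on the reference arrays, 7.27 to 7.42 on the other P12 arrays and 7.51 to 7.61 at P12.5.

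**Figure D3:**
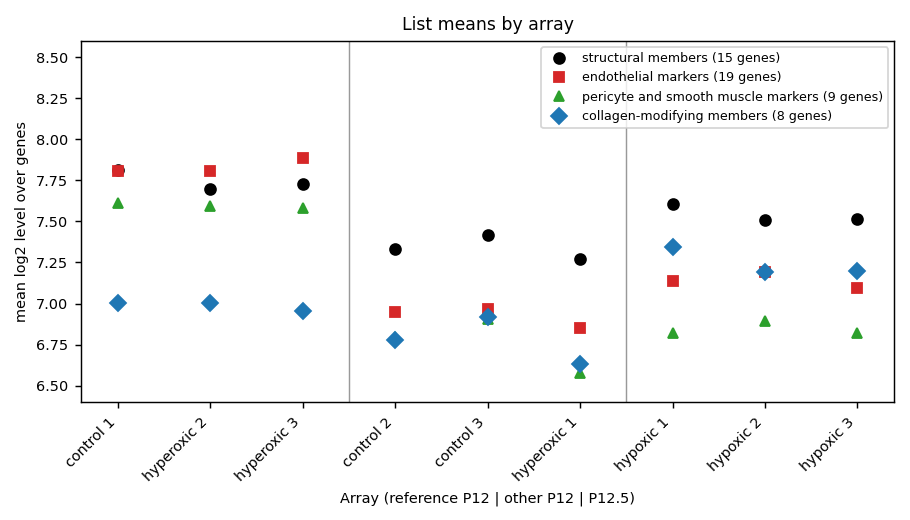
Mean log2 level (vertical axis) over the tested genes of 4 lists on each of the 9 arrays (horizontal axis, in the order reference P12, other P12 and P12.5, divided by lines). Structural, endothelial and pericyte means are highest on the reference arrays, and the collagen-modifying mean is highest on the P12.5 arrays.

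Of the genes of collagen modification, Plod2, P4ha2, Lox and Loxl2 were highest on the P12.5 arrays and P4ha1 and Serpinh1 on the reference arrays, each without overlap, while Plod1 and Loxl1 showed neither separation. Plod2 was at 5.55, 5.27 and 5.93 on the control arrays, 5.26, 5.62 and 5.53 on the hyperoxic arrays and 6.86, 6.54 and 6.60 on the hypoxic arrays. Every P12.5 array was above every P12 array, and no such separation was seen between the P12 arrays themselves. Its mean was 6.67 ± 0.17 (SD, n = 3) at P12.5 and 5.53 ± 0.25 (SD, n = 6) at P12. Plod2 was higher at P12.5 than on the arrays labelled hyperoxic by 1.20 ± 0.18 (limma adjusted p = 0.0139), and it was the 1 member of 31 that passed there (background 1.13% of probes higher, 0.566% lower). It was likewise the 1 member that passed against the labelled control arrays, at 1.08 ± 0.18 (adjusted p = 0.0216, background 1.29% higher, 0.601% lower). Against all 6 P12 arrays the difference was 1.14 ± 0.15 (adjusted p = 0.00429), again 1 of 31 members (background 1.79% higher, 1.45% lower). The P12.5 arrays did not overlap the labelled hyperoxic arrays for 6 members that were higher and 2 that were lower (background 13.2% and 10.2%), nor the labelled controls for 7 that were higher and 5 that were lower (background 17.6% and 20.2%).

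The call of Plod2 against all 6 P12 arrays was kept without any 1 array (adjusted p = 0.00158 to 0.0440) and was lost with the deposited ratios (0.73, adjusted p = 0.0544). Against the labelled groups it was lost without hyperoxic 3, hypoxic 1 or hypoxic 3 (adjusted p = 0.0516 to 0.0879 against hyperoxic), and without control 1, control 2 or any 1 of the P12.5 arrays (adjusted p = 0.0830 to 0.119 against control), with differences of 0.93 to 1.23. The call against control was also lost with median centring (1.30, adjusted p = 0.0653), and under 8 of 16 alternatives in all. Without hyperoxic 1 more members passed: 6 against the labelled hyperoxic arrays, namely Plod2, Lox (0.46), Loxl2 (0.61), P4ha2 (1.02) and Mmp2 (0.50) as higher and Serpinh1 (-0.89) as lower, and 5 against the labelled controls, namely Plod2, Sparc (0.96), Loxl2 (0.86), P4ha2 (0.53) and Plod1 (0.40), all higher. More probes of all kinds passed as well: of 19620 tested, 2006 against the labelled hyperoxic arrays and 3169 against the labelled controls. A second, dimmer Plod2 probe, detected on 4 arrays, differed from the 6 P12 arrays by 0.27 ± 0.13 and did not pass (adjusted p = 0.263). In the split comparisons Plod2 was higher at P12.5 than on the reference arrays (1.10 ± 0.18, adjusted p = 0.00449) and than on the other P12 arrays (1.18 ± 0.18, adjusted p = 0.00878), and the latter call was lost without hypoxic 1 (1.09, adjusted p = 0.0545).

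P4ha1 and P4ha2 encode catalytic subunits of the prolyl hydroxylase that stabilises the collagen helix. P4ha2 was at 6.17, 6.53 and 6.85 on the control arrays, 6.60, 6.10 and 5.95 on the hyperoxic arrays and 7.15, 6.92 and 7.06 on the hypoxic arrays. The P12.5 arrays were all above the P12 arrays, and among the latter the reference arrays were lowest. P4ha2 was higher at P12.5 than on the reference arrays by 0.97 ± 0.12 (limma adjusted p = 0.00125) and differed from the 6 P12 arrays by 0.68 ± 0.19, which did not pass (adjusted p = 0.0716). That difference passed without hyperoxic 1 (0.73, adjusted p = 0.0296), without control 3 (0.78, adjusted p = 0.0423) and with median centring (0.97, against 0.24 over all probes, adjusted p = 0.0359). It was also higher on the other P12 arrays than on the reference arrays (0.58 ± 0.12, adjusted p = 0.0316), a call lost without control 3, hyperoxic 2, hyperoxic 3 or any 1 of the P12.5 arrays (adjusted p = 0.0531 to 0.116). The same difference was 0.26 after median centring (adjusted p = 0.513) and 0.15 in the deposited ratios (adjusted p = 0.602), where the medians of all probes were -0.26 and -0.22. P4ha1 went the other way along the split. It was at 8.71, 7.94 and 8.35 on the control arrays, 8.11, 8.72 and 8.56 on the hyperoxic arrays and 8.43, 8.36 and 8.27 on the hypoxic arrays, with the reference arrays highest and a split difference of -0.54 ± 0.12 (adjusted p = 0.0418), a call lost without control 1, control 2, hyperoxic 2, hyperoxic 3 or any 1 of the P12.5 arrays (adjusted p = 0.0714 to 0.149), and after median centring (-0.85, adjusted p = 0.0723). The difference of P4ha1 between P12.5 and all 6 P12 arrays was -0.05 ± 0.18.

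The promoter windows of both subunit genes are printed because their levels ran in opposite directions while both hold several HIF core matches. They are RefSeq windows on GRCm38.p6, at chr10:59323046-59323345 on the plus strand for P4ha1 and chr11:54100674-54100973 on the plus strand for P4ha2, with matches to ACGTG or GCGTG on either strand in capitals.
P4ha1: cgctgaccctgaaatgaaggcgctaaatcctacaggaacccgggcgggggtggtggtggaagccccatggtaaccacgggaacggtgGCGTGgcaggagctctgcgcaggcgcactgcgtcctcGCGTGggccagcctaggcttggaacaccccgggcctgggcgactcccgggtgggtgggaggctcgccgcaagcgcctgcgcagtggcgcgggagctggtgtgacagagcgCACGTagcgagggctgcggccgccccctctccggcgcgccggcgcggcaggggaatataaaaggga
P4ha2: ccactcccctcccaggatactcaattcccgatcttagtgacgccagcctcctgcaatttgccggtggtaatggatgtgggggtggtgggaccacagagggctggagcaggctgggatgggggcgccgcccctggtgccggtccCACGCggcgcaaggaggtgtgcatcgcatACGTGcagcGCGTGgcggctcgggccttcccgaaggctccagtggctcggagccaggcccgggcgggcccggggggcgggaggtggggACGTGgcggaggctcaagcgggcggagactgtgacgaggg
P4ha1 held 3 matches, starting at -163, -126 and -16, and P4ha2 held 4, starting at -107, -78, -69 and +11. A window was found for 25 members, and 16 of them (64%) held at least 1 match, against 46.7% of 27025 genes with a window. No window was at hand for Plod2, Lox, Loxl2 or Mmp2. Among the other members with a match, Serpinh1 held 1, Hspg2 and Plod1 held 2 each, and the windows of Nid1, Sparc and Lamb2 held 0.

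Lox and Loxl2 encode lysyl oxidases, the copper enzymes that start covalent cross-linking of collagen, and Loxl2 acts on type IV collagen. Loxl2 was at 5.70, 5.40 and 5.48 on the control arrays, 4.49, 5.72 and 5.83 on the hyperoxic arrays and 6.51, 6.28 and 6.37 on the hypoxic arrays. The P12.5 arrays were all above the P12 arrays, hyperoxic 1 was far below the others, and the gene was not detected there. It was higher at P12.5 than on the other P12 arrays by 1.26 ± 0.22 (limma adjusted p = 0.0160), a call lost without any 1 of the P12.5 arrays (adjusted p = 0.0615 to 0.0774). Against all 6 P12 arrays it differed by 0.95 ± 0.25 and did not pass (adjusted p = 0.0637). Without hyperoxic 1 that difference was 0.76 and passed (adjusted p = 0.00421), and with the mean of its 2 probes it was 0.71 and passed (adjusted p = 0.0473). The dimmer of the 2 probes was not detected on control 2, hyperoxic 1 and hyperoxic 2. It met the detection filter through the P12.5 arrays alone, so nothing is rested on the pass of the mean. Lox was at 6.55, 6.50 and 6.25 on the control arrays, 5.91, 6.25 and 6.39 on the hyperoxic arrays and 6.77, 6.91 and 6.66 on the hypoxic arrays. Its P12.5 arrays were also all above the P12 arrays, by a mean of 0.47 ± 0.14 that did not pass (adjusted p = 0.0912) and that passed without hyperoxic 1 (0.39, adjusted p = 0.0414). After median centring Lox was higher than on the other P12 arrays (0.94, against 0.37 over all probes, adjusted p = 0.0190). Loxl1, a relative needed for elastic fibres, was at 7.01, 7.15 and 7.03 on the control arrays, 7.09, 6.87 and 6.89 on the hyperoxic arrays and 7.08, 6.86 and 6.95 on the hypoxic arrays, with the reference arrays below the other P12 arrays and a difference of -0.05 ± 0.10 from the 6 P12 arrays.

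Plod1, a lysyl hydroxylase of the collagen helix itself, was at 6.91, 6.81 and 6.79 on the control arrays, 6.96, 7.29 and 7.13 on the hyperoxic arrays and 7.29, 7.26 and 7.15 on the hypoxic arrays. The P12.5 arrays were above all labelled controls and overlapped the labelled hyperoxic arrays, which were above the controls too. The difference from the 6 P12 arrays was 0.25 ± 0.13 (limma adjusted p = 0.282), and that from the labelled controls, 0.40 ± 0.12, passed without hyperoxic 1 alone among the arrays left out (adjusted p = 0.0192). After median centring Plod1 was higher at P12.5 than on the other P12 arrays (0.84, adjusted p = 0.0246), as was P4ha2 (0.84, adjusted p = 0.0296). The median of all probes was 0.37 there.

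Serpinh1 encodes HSP47, the collagen chaperone of the endoplasmic reticulum. It was at 9.40, 8.65 and 8.67 on the control arrays, 8.63, 9.47 and 9.37 on the hyperoxic arrays and 8.64, 8.43 and 8.53 on the hypoxic arrays. The reference arrays were high and close together, and the other P12 arrays and the P12.5 arrays were low. The split difference was -0.76 ± 0.10 (limma adjusted p = 0.00318). At P12.5 it was lower than on the reference arrays by -0.88 ± 0.10 (adjusted p = 0.000665), a call lost with median centring (-0.71, adjusted p = 0.123), and it differed from the other P12 arrays by -0.12 ± 0.10, which did not pass.

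Counted together, 1 of 8 genes of collagen modification passed at P12.5 against all 6 P12 arrays, while the arrays of both sides did not overlap for Lox, Loxl2, P4ha2 and Plod2, all higher (background 6.91% of probes). The median of the 8 genes was 0.36, against 0.02 over all probes. Median centring gave 0.63 against 0.24, and the deposited ratios gave 0.37 against 0.13. Along the split 1 was higher and 2 were lower (background 1.59% and 2.41% of probes). Their mean log2 level was 6.96 to 7.00 on the reference arrays, 6.63 to 6.92 on the other P12 arrays and 7.19 to 7.34 at P12.5. The order depended on the measure. Their summed linear level was highest on the reference arrays, at 1548 to 1650, against 1150 to 1271 on the other P12 arrays and 1353 to 1495 at P12.5.

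**Figure D4:**
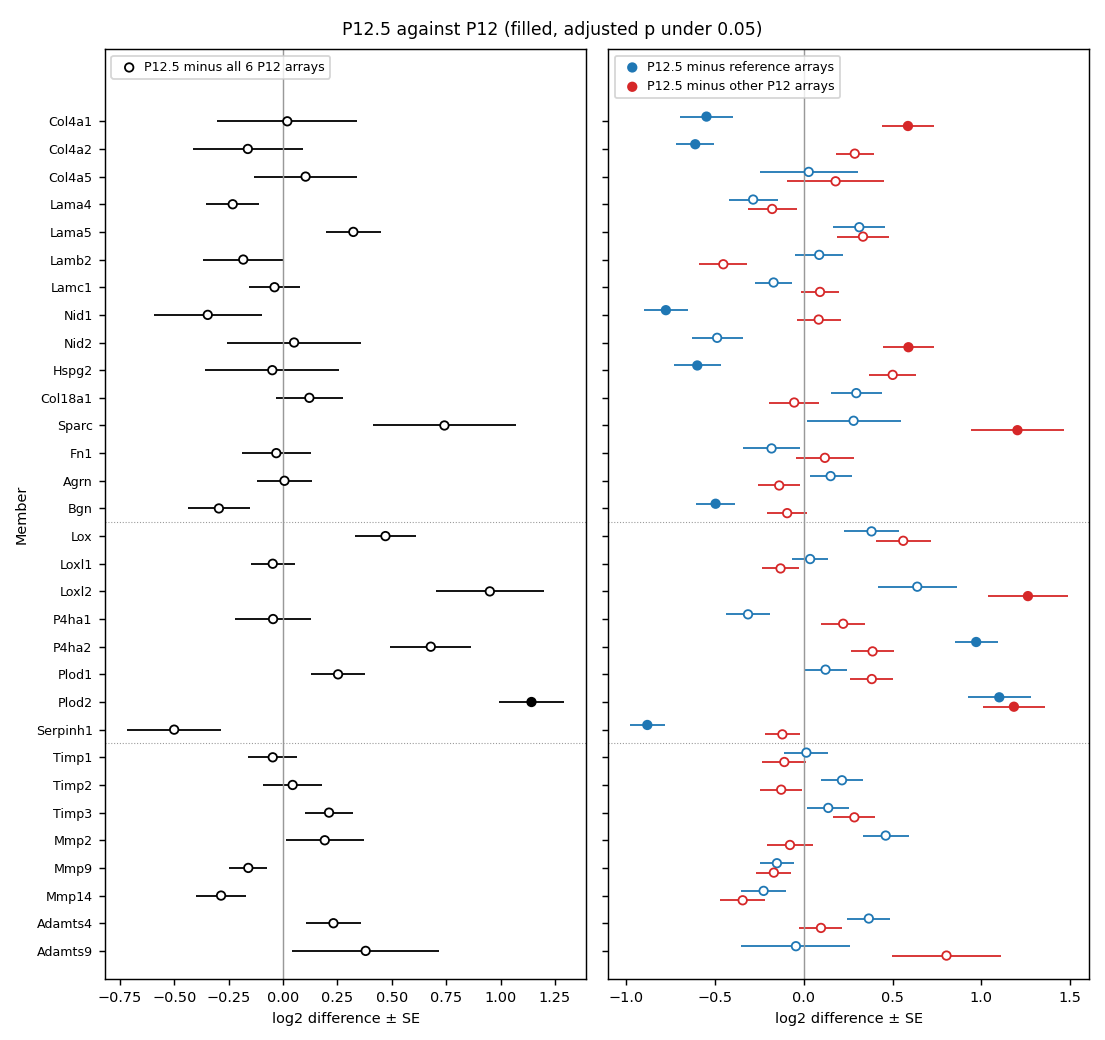
Log2 difference ± SE (horizontal axis) of the P12.5 arrays for the 31 tested members, from all 6 P12 arrays at the left and from the reference arrays (blue) and the other P12 arrays (red) at the right. Filled points passed the limma test. At the left Plod2 alone is filled, and at the right Col4a1 is filled on both sides of 0.

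Among the proteases and inhibitors 1 call was made in all comparisons, that of Mmp2 along the split. Mmp2, a gelatinase that cleaves type IV collagen, was at 7.57, 7.89 and 7.91 on the control arrays, 8.27, 7.32 and 7.56 on the hyperoxic arrays and 7.87, 8.0 and 7.96 on the hypoxic arrays. The other P12 arrays were above the reference arrays by 0.54 ± 0.13 (limma adjusted p = 0.0483), a call lost without any 1 of the 9 arrays (0.42 to 0.60, adjusted p = 0.0583 to 0.175). It was 0.21 after median centring (adjusted p = 0.510) and 0.084 in the deposited ratios (adjusted p = 0.742), where the medians of all probes were -0.26 and -0.22. At P12.5 Mmp2 differed from the reference arrays by 0.46 ± 0.13 (adjusted p = 0.0522), which passed without hyperoxic 1 (0.46, adjusted p = 0.00914). Mmp14, the membrane-bound protease that activates the Mmp2 protein, was at 8.48, 8.70 and 8.52 on the control arrays, 8.57, 8.40 and 8.56 on the hyperoxic arrays and 8.34, 8.42 and 8.0 on the hypoxic arrays. Hypoxic 3 was lowest, and the difference from the 6 P12 arrays was -0.28 ± 0.11 (adjusted p = 0.186). Mmp9, the other gelatinase, was at 7.52, 7.49 and 7.54 on the control arrays, 7.62, 7.48 and 7.60 on the hyperoxic arrays and 7.40, 7.46 and 7.29 on the hypoxic arrays. All 3 P12.5 arrays were just under the P12 arrays (background 7.06% of probes), the difference of -0.16 ± 0.09 did not pass, and its sign turned under both other scalings, to 0.13 after median centring and to 0.06 in the deposited ratios. The medians of all probes were 0.24 and 0.13 there, so Mmp9 stayed below the median probe.

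The inhibitors of these proteases passed in no comparison as reported. Timp1 was at 6.37, 6.36 and 6.28 on the control arrays, 6.15, 6.11 and 5.94 on the hyperoxic arrays and 6.21, 6.15 and 6.10 on the hypoxic arrays. Its labelled controls were above both other groups, with no call. Timp2, which also takes part in the activation of the Mmp2 protein, was at 10.12, 10.24 and 10.30 on the control arrays, 10.51, 9.82 and 10.07 on the hyperoxic arrays and 10.28, 10.20 and 10.18 on the hypoxic arrays, and the reference arrays were lowest. Timp3, which is bound to the matrix, was at 8.85, 8.92 and 8.76 on the control arrays, 8.96, 9.09 and 9.15 on the hyperoxic arrays and 9.21, 9.03 and 9.26 on the hypoxic arrays, and its control arrays were lowest. The P12.5 arrays differed from the 6 P12 arrays by -0.05 ± 0.11 for Timp1, 0.04 ± 0.14 for Timp2 and 0.21 ± 0.11 for Timp3, and none passed. With median centring Timp3 was higher at P12.5 than on the other P12 arrays (0.73, against 0.37 over all probes, adjusted p = 0.0394).

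The ADAMTS genes encode secreted proteases of proteoglycans. Adamts4 was at 6.01, 6.28 and 6.16 on the control arrays, 6.02, 5.92 and 5.72 on the hyperoxic arrays and 6.18, 6.39 and 6.18 on the hypoxic arrays. The P12.5 arrays were above the labelled hyperoxic arrays and overlapped the controls, and the difference from the reference arrays, 0.37 ± 0.12, passed without hyperoxic 1 alone among the arrays left out (limma adjusted p = 0.0396). Adamts9 was at 6.50, 5.98 and 6.36 on the control arrays, 4.86, 6.61 and 6.63 on the hyperoxic arrays and 6.63, 6.28 and 6.70 on the hypoxic arrays. Hyperoxic 1, where it was not detected, was far below the other 8 arrays. No comparison passed as reported, and after median centring Adamts9 was higher at P12.5 than on the other P12 arrays (1.01, against 0.37 over all probes, adjusted p = 0.0368). Adamts1 was detected on no array. At P12.5, 0 of the 8 tested genes passed against all 6 P12 arrays, with 1 at an unadjusted p under 0.05, and their median was 0.12, against 0.02 over all probes. Median centring gave 0.40 against 0.24, and the deposited ratios gave 0.24 against 0.13.

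Other genes of the matrix were counted at P12.5 against the 6 P12 arrays, where 1.79% of probes were called higher and 1.45% lower. Of 13 tested other collagens 2 were higher, Col2a1 (0.76 ± 0.13, limma adjusted p = 0.0152), a collagen of cartilage and vitreous, and Col5a1 (0.59 ± 0.13, adjusted p = 0.0369), which helps to set the width of fibrils. Of 9 other basement membrane genes 0 passed, with a lowest adjusted p of 0.0630. Of 23 other genes linked to collagen modification 2 were higher, Egln3 (1.41 ± 0.15, adjusted p = 0.00158) and Egln1 (1.05 ± 0.12, adjusted p = 0.00182), which hydroxylate HIF and not collagen. Egln3 was detected on 6 of the 9 arrays, so its difference rests in part on undetected values. No further prolyl or lysyl hydroxylase, lysyl oxidase or collagen chaperone of that list passed.

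Of 28 other matrix proteases and inhibitors, Plat, the tissue plasminogen activator, was higher (0.87 ± 0.12, limma adjusted p = 0.00460). The protease gene Adamts19 was also higher (0.69 ± 0.16, adjusted p = 0.0473), and the aggrecan-cleaving Adamts5 was lower (-0.57 ± 0.13, adjusted p = 0.0464). Of 20 matrix receptors 2 were higher, the laminin-binding adhesion molecule Mcam (1.15 ± 0.23, adjusted p = 0.0265) and the collagen receptor Ddr1 (0.48 ± 0.10, adjusted p = 0.0306). Of 24 further matrix and matricellular genes, the growth factor-binding Ccn2 was higher (1.24 ± 0.12, adjusted p = 0.000665) and vitronectin, Vtn, was lower (-1.03 ± 0.23, adjusted p = 0.0424). Vtn is also in the list of pericyte markers.

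Markers of other cells also differed at P12.5. Against all 6 P12 arrays, 3 of 13 rod and cone genes, 3 of 10 pigment cell genes and 2 of 11 Muller glia genes were lower and 0 of them higher (background 1.45% lower and 1.79% higher). Of 19 endothelial genes 1 was higher, the glucose transporter Slc2a1 (0.61 ± 0.11, limma adjusted p = 0.0161), and 1 lower, of 6 astrocyte genes 1 was higher, Gfap (0.58 ± 0.13, adjusted p = 0.0436), and 1 lower, and of 9 pericyte genes 1 was lower. The lower astrocyte gene, Aqp4, is also in the Muller glia list and is counted in both. Summed over the list, the linear level of the rod and cone genes was 87284 to 92435 at P12.5 and 97730 to 107954 on the P12 arrays. The 15 tested lens genes summed to 3990 to 17237 at P12.5, to 2216 to 2758 on the reference arrays and to 2002 to 10023 on the other P12 arrays, with hyperoxic 1 (10023) and hypoxic 1 (17237) far above the other arrays. All 15 had positive differences in every comparison of P12.5, but 0 passed the test. Their arrays did not overlap against the labelled controls (median log2 difference 2.37, background 17.6% of probes) and the reference arrays (median 1.99, background 17.4%). Of 10 markers of fibroblasts, sclera and meninges 4 were tested and 0 passed, and Dcn, Lum, Col1a1, Col1a2, Col3a1 and Fmod had no tested probe. The part of these cells in the P12.5 differences of Plod2 and the other matrix genes was not tested.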

How the data were processed

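Per the labels, RNA from retinas was labelled as biotinylated cRNA for Illumina arrays. In the deposited raw table each array has an intensity per probe, linear and taken as uncorrected and not normalized, and a detection p-value. For 5 arrays the deposited p-value column did not follow the intensity beside it, so each was used with the array it followed. The deposited ratio table, which the authors scaled in a way not given in the sources used here, served to find the reference arrays (median ratio of 1 within 0.0015 over all 84 sets of 3 arrays) and as an alternative.

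Intensities were processed with neqc in limma 3.58.1 (R 4.3.3): normexp background correction, an offset of 16, which makes fold changes of dim genes smaller, and quantile normalization on the log2 scale. Linear models with a mean per group (lmFit, eBayes) were fitted to all 9 arrays for each grouping, two-sided, with Benjamini-Hochberg adjustment over 19620 probes at 0.05, and adjusted p-values in the text come from limma. The pipeline was tested on simulated data. Of 46613 probes, 32781 had 1 gene symbol, 55 had several and were not named, and 13777 had none. All members called, or with arrays that did not overlap, are given array by array, the others by range, and up to 4 called genes of lowest p from each other matrix list. The members, lists and tests were chosen with earlier results of these data known. The number of arrays limits the precision. Alternatives were median centring, the deposited ratios, no background correction, no detection filter, array weights, a replicate block, the mean of a gene's probes and leaving out each array.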

Additional observations from a re-analysis of the deposited data

Results flagged for a closer look

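Loxl2 had a log2 level of 4.49 on hyperoxic 1, against 5.40 on the nearest of the other 5 P12 arrays, and it was not detected on hyperoxic 1. Adamts9 had a log2 level of 4.86 on hyperoxic 1, against 5.98 on the nearest of the other P12 arrays, and it was not detected there either. In both cases this array's gap to the next, as a share of the range of the 6 P12 arrays (0.682 and 0.631), was above Dixon's critical value for 6 samples. All 31 tested members were checked in this way, and chance alone gives about 1 in 20 such gaps.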

How the results depend on the processing

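Calls at 3 arrays a group were few and moved with most settings. As reported, the numbers of called probes (and members) were 0 (0) between the labelled P12 groups, 333 (1) at P12.5 against the labelled hyperoxic arrays, 371 (1) against the labelled controls, 636 (1) against all 6 P12 arrays, 783 (9) along the split, 1774 (8) against the reference arrays and 1229 (5) against the other P12 arrays. Leaving out 1 array gave, in that order, 0 to 568 (0 to 1), 49 to 2006 (0 to 6), 18 to 3169 (0 to 5), 80 to 1831 (1 to 4), 187 to 981 (6 to 8), 806 to 3417 (5 to 13) and 110 to 1641 (0 to 5). The highest counts came without hyperoxic 1, except along the split, where they came without control 1.

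Array weights gave 2680 (10), 5289 (12), 4061 (7) and 4001 (6) in the first 4 comparisons. Median centring gave 185 (2), 42 (0), 355 (2), 307, 449 (2) and 2391 (12) in the last 6. It moved the median difference of all probes to 0.31, 0.18, 0.24, -0.26, 0.12 and 0.37, so that of 355 calls against all 6 P12 arrays 349 were higher and 6 lower, against 351 and 285 as reported. Of its 2391 calls against the other P12 arrays 2381 were higher and 10 lower, against 833 and 396 as reported. The deposited ratios gave 21, 14, 33, 33, 76 and 25 probes and 0 members in those 6. With no detection filter 190 probes passed against the labelled hyperoxic arrays and 596 (2) against the other P12 arrays. With no background correction 694 passed against the labelled controls and 987 against all 6 P12 arrays. The mean of a gene's probes gave 2 members there. No called member changed sign under any setting run.

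Same-numbered arrays of different groups did not deviate together from their labelled group means (correlations of -0.34 to 0.11). Same-numbered control and hyperoxic arrays lie on opposite sides of the split, so for them this check cannot decide on pairing. The numbers were not taken as pairs. With the replicate number as a block, 127 probes (1 member) passed against the labelled hyperoxic arrays, 42 (0) against the labelled controls, where Plod2 was lost (adjusted p = 0.0729), 161 (1) against all 6 P12 arrays and 0 between the labelled P12 groups.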
